A study of Mus musculus with 2 samples.

Results

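CA3 pyramidal layer spots were taken as the spots of 2 mouse brain sections with the highest mean score over 5 genes. The genes, used as markers of CA3 pyramidal neurons, were Grik4, Iyd, Nectin3, Cpne4 and Spink8. For every spot with at least 500 unique molecular identifiers (UMIs, the counted RNA molecules) the score was the mean over these 5 genes of ln(1 + UMIs per 10000). The 30 highest-scoring spots of each section are the members, 60 of 5561 spots in all, and they were set against the other 3000 spots of section 1 and 2501 of section 2. The sections were fresh-frozen brain of wild-type C57BL/6 mice, a common inbred strain, cut at 10 µm and labelled ZT12 (a zeitgeber time, counted in hours from lights on) with replicate numbers 1 and 2. Both form 1 group, with no treatment or age named in the labels. The assay was 10x Visium, which captures polyadenylated RNA from the section on printed, barcoded spots. A spot covers a small area with several cells or parts of cells, so its counts are not those of a single neuron. The labels do not state that the sections came from separate animals, so no p-value below can be taken to measure spread between animals. The spread behind each p-value came from these 2 sections, wholly or mostly through a trend over genes, and may be technical.

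CA3 is the hippocampal field between the dentate gyrus and CA1. Its pyramidal neurons receive the giant mossy fibre terminals of dentate granule cells on their proximal dendrites, excite each other through recurrent collaterals, and send Schaffer collaterals to CA1. The small field CA2 lies between CA3 and CA1. Kainate receptors, the brain-derived neurotrophic factor and strong presynaptic plasticity are classical subjects of work on the CA3 circuit.

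Member spots were rich in RNA. The median was 29880 UMIs in section 1 (770 to 62157) and 27558 in section 2 (542 to 48949), against medians of 18080 and 21542 in the other spots. The summed members held 805876 and 806804 UMIs. Mitochondrially encoded genes took 10.8% and 11.7% of member UMIs and 14.9% and 14.4% of those of other spots. The part of depth and of this share in the differences below was not tested. The sections share 1965 barcodes, 1952 of them among kept spots, since both arrays print the same barcode set, and no barcode was a member in both sections. The file headers name Space Ranger 1.2.2 for the first section but 2.0.1 for the second, so software version and section cannot be told apart.

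The score of the first-ranked member was 0.79 in section 1 and 0.78 in section 2. At the border, ranks 30 and 31 had 0.423 and 0.409 in section 1 and 0.423 and 0.422 in section 2, so the members pass into their neighbours without a gap. The score genes chose the spots, so their values are a description with no test. Levels are UMIs per 1000000 (CPM) of the summed spots. Cpne4, a calcium-dependent phospholipid-binding copine, stood at 239.5 and 176 CPM in the members of sections 1 and 2 and at 40.5 and 40.7 CPM in other spots. Its UMIs per member spot ran from 0 through a median of 5.5 to 17 in section 1 and from 0 through 3.5 to 16 in section 2. Grik4, the kainate receptor subunit GluK4, was at 69.5 and 100.4 CPM in members against 15.8 and 20.7 CPM, with medians of 1 and 2 UMIs per spot. Nectin3, an adhesion molecule of mossy fibre contacts, was at 72.0 and 45.9 against 11.1 and 9.97 CPM, with medians of 1.5 and 1 UMIs. Spink8, a Kazal-type serine protease inhibitor, was at 115 and 118 against 8.73 and 12.8 CPM, with a median of 1 UMI in each section. Iyd, an iodotyrosine deiodinase that recovers iodide in the thyroid, was the thinnest evidence, with 9 and 4 UMIs over all members (11.2 and 4.96 CPM against 0.9 and 0.82 CPM). In both sections, each of the 5 genes was higher in the summed members than in the summed other spots.

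The genes differed in how well they were seen in spots that they had not helped to choose. When the 30 spots were chosen by the other 4 genes, Spink8 was 6.79-fold its level in the remaining spots in section 1 and 3.57-fold in section 2. The same ratio was 3.97 and 2.56 for Grik4, 3.49 and 2.93 for Cpne4, and 4.58 and 1.81 for Nectin3. For Iyd it rested on 8 and 2 UMIs, at 10.6 and 2.93. The ratio was lower in section 2 for every one of the 5 genes. These choices kept 16 to 29 of the 30 members, fewest when Cpne4 was left out in section 1 and when Spink8 was left out in section 2.

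The members were not uniform. All 5 score genes were detected together in 4 spots of section 1 and in none of section 2, and 4 of them in 11 and 14 spots. At the other end, 4 members of section 1 and 1 of section 2 entered on a single UMI of a single score gene, and these 5 spots had under 2000 UMIs each. Members with under 10000 UMIs numbered 7 and 3 and held 2.70% and 1.91% of the member UMIs. Outside the rule, the CA3 markers Bok and Hs3st4 and Neurod6, a transcription factor gene of pyramidal neurons also high in CA1 spots, were compared by spot. All 3 were without a UMI in 7 members of section 1, 6 of them under 10000 UMIs, and in 1 of section 2. A single UMI of any of the 3 genes was enough to pass, so the check does not show that the other members are CA3. The label thus cannot be taken to hold for every spot. In each section 1 member also ranked among the 30 highest spots for 5 CA1 genes, and the member ranked 25 in section 1 held 24 UMIs of Wfs1, a CA1 gene.

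Another kind of member carried genes of CA2. At least 5 UMIs of Rgs14, a regulator of G protein signalling that marks CA2, lay in 5 members of each section. This split was made after the values were seen and is a description. Rgs14 was at 210.5 and 254 CPM in these spots and at 19.8 and 24.9 CPM in the other members. Amigo2, an adhesion molecule of CA2, was at 210.5 and 90.6 against 19.8 and 39.0 CPM. Spink8 went with them, at 306 and 266 against 52.8 and 79.5 CPM, or medians of 12 and 10 UMIs per spot against 1 and 1. Iyd had no UMI in these spots, and Nectin3 was at 30.1 and 30.2 against 85.8 and 49.9 CPM. Nptx1, a neuronal pentraxin, was also lower there, at 196 and 175 against 592 and 326 CPM. Grik4 was close to even between them, at 65.2 and 96.6 against 70.9 and 101 CPM. Some genes named below as rises were also higher in the spots with Rgs14 than in the other members. Prdm8 was at 251 and 290 against 158 and 112 CPM, Hpca at 3253 and 4222 against 2127 and 1667 CPM, and Prkca at 351 and 489 against 282 and 285 CPM. Bok was lower there, at 135 and 163 against 302 and 243 CPM, and Neurod6 was mixed, at 306 and 199 against 328 and 175 CPM. Of the Spink8 UMIs in members, 61 of 93 in section 1 and 44 of 95 in section 2 lay in these 5 spots, against 6 of 58 and 5 of 37 of the Nectin3 UMIs.

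**Figure D1:**
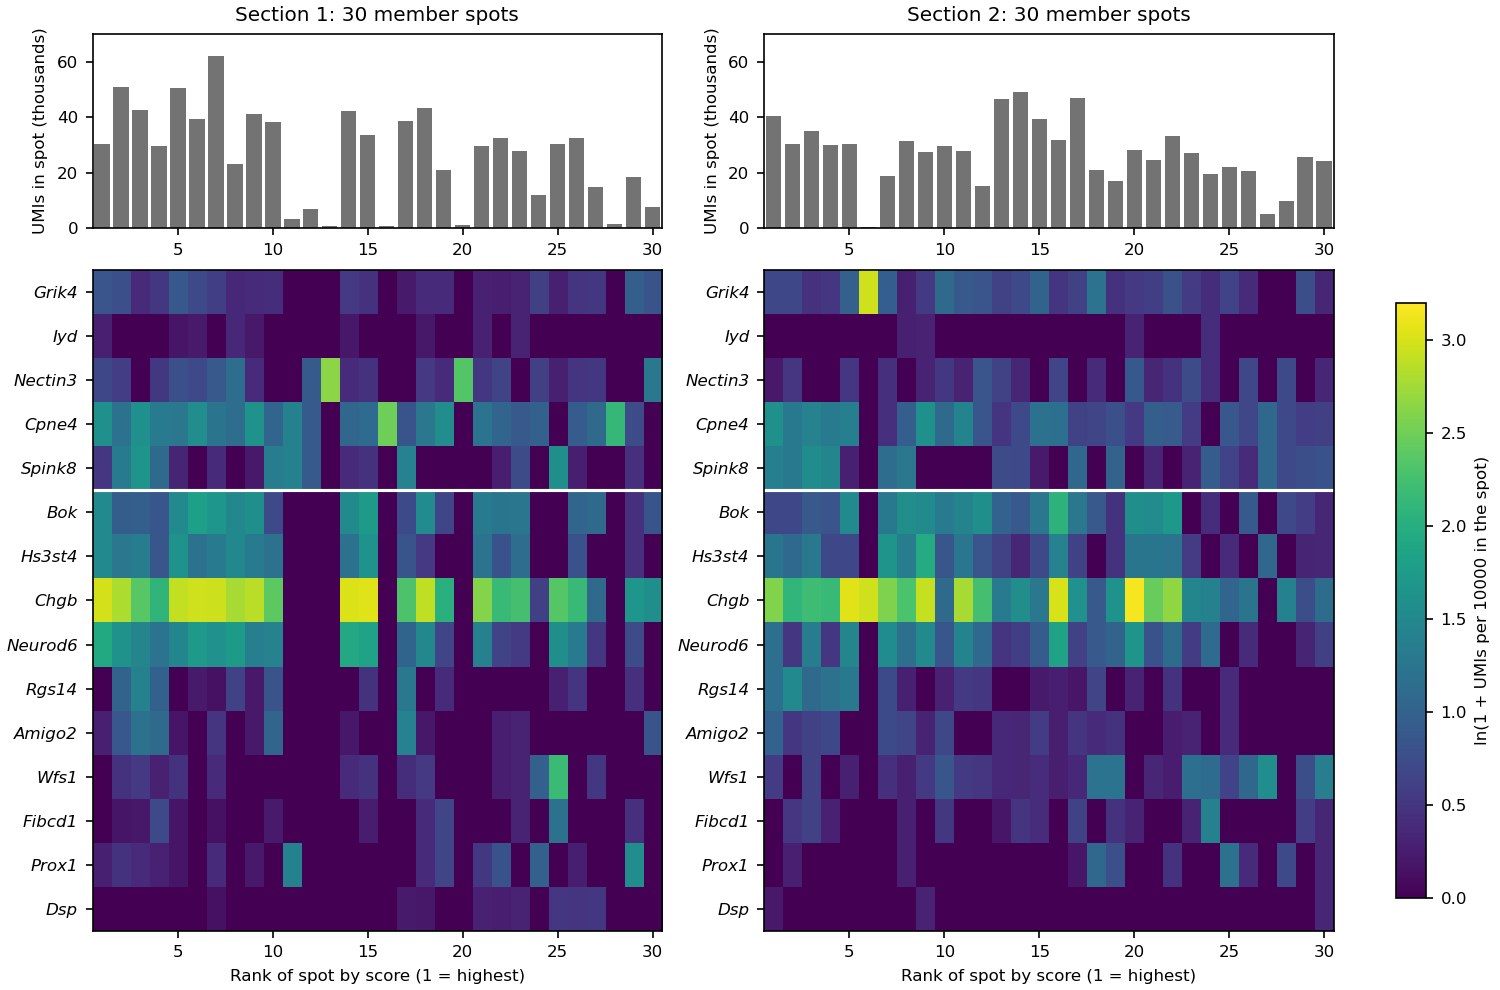
Upper panels: UMIs of each of the 30 member spots of sections 1 and 2 ordered by score rank. Lower panels: ln(1 + UMIs per 10000) of 15 genes in the same spots, with the 5 score genes above the white line. Bok, Hs3st4, Chgb and Neurod6 run through most deep spots and are dark in most of the shallow ones, such as ranks 11, 12, 13, 16, 20 and 28 of section 1, and Rgs14 and Amigo2 are bright in a few spots of each section.

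Against all other spots of the same section, member spots were higher in Neurod6, Prdm8, Hpca, Chgb and Bok and lower in haemoglobin genes and Myrf. Of 15776 genes tested with edgeR's quasi-likelihood test on the 4 sums, 191 (1.21%) were at least 2-fold higher and 258 (1.64%) at least 2-fold lower in members at a Benjamini-Hochberg adjusted p under 0.05. Fold changes are on the log2 scale with the standard error of the fit (± SE, n = 2 sections), followed where useful by the value within section 1 and section 2. Of the 191 genes, 189 were higher within both sections and 122 at least 2-fold so in each, and 149 rose more in section 1. The fit took a gene's spread from the trend over genes of similar level, so its own difference between sections did not enter, and its SE and p may be too small. Without section as a term, 10 genes passed as higher and 0 as lower by the same edgeR test (279 and 508 at least 2-fold at an unadjusted p under 0.05, and 2249 genes of any size), and DESeq2 called 42 as lower. A fit of 8 sums, in which CA1, dentate and remaining spots stood apart, gave 204 and 220, and the same fit without CA3 replicate 1 gave 122 and 67.

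Neurod6, a basic helix-loop-helix transcription factor of pyramidal neurons (chromosome 6, 55677818 to 55681263 on GRCm38.p6), was the largest rise among genes whose average log2 CPM reached 5, the limit for naming outside the lists. It was at 323 and 179.7 CPM in members and 44.4 and 39.7 CPM in other spots, a log2 difference of 2.52 ± 0.12 (adjusted p = 1.62e-89, 2.85 and 2.15 by section). Its relative Neurod2 was at 150.1 and 162 against 58.5 and 51.1 CPM (1.49 ± 0.13), and rose somewhat more in section 2 (1.35 and 1.64). Prdm8, a zinc finger repressor of the same developmental programme as the bHLH factor Bhlhe22 (chromosome 5, 98167203 to 98187454), was at 181 and 149 against 32.4 and 33.6 CPM (2.29 ± 0.13). Zbtb18, a zinc finger repressor of cortical neurons, was at 574 and 336 against 184 and 129 CPM (1.49 ± 0.11). In all of these factors, both member values lay above both values of the other spots.

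Further named rises came from genes of calcium handling, kinase signalling, inhibition and the cytoskeleton. Hpca, the hippocampal calcium sensor hippocalcin (chromosome 4, 129111570 to 129125919), was at 2406 and 2191 CPM in members and 421 and 632 CPM elsewhere (2.13 ± 0.10, 2.51 and 1.77 by section). Cabp7, a calcium-binding protein of the Golgi, rose by 1.99 ± 0.12 and the classical protein kinase C gene Prkca by 1.92 ± 0.11. Cpne6, a copine that moves to spine membranes with calcium, was at 674 and 649.5 against 149.5 and 218 CPM (1.84 ± 0.10). Gabra5, the GABA-A receptor subunit of extrasynaptic inhibition in hippocampus, rose by 1.58 ± 0.14. Wipf3, which binds the actin regulator N-WASP, rose by 1.93 ± 0.11, and Epha7, an ephrin receptor, by 1.53 ± 0.15, with the larger value in section 1 (1.93 and 1.04).

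The remaining named rises are known CA3 markers. Hs3st4, a heparan sulfate sulfotransferase, was at 209.7 and 161 CPM in members and 49.9 and 62.1 CPM in other spots (1.71 ± 0.13). Chgb, the secretory granule protein chromogranin B, was at 1293 and 801 against 315 and 319 CPM (1.67 ± 0.10, 2.03 and 1.30 by section). Bok, a member of the Bcl-2 family, was at 261 and 227 against 76.1 and 77.3 CPM (1.64 ± 0.12). Of 10 listed CA3 markers outside the rule, 8 were called higher (median 1.36, against -0.08 over all tested genes and 4.82% called higher at any size). The rise of Npy2r, the neuropeptide Y receptor Y2, was the largest of them, at 98.0 and 63.2 against 8.85 and 15.8 CPM (2.73 ± 0.20). Homer3, a postsynaptic scaffold, rose by 1.45 ± 0.18, Nptx1 by 1.27 ± 0.11, Trps1, a GATA-type repressor, by 1.04 ± 0.25, and Elavl2, a neuronal RNA-binding protein, by 0.66 ± 0.13. Socs2 (0.76 ± 0.33) and Coch (-0.53 ± 0.31) did not pass. The list was chosen with results of these spots known and describes the members.

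Haemoglobin genes were the 3 largest falls above the same limit, under which 195 of the 258 lower genes lay. Of 5 listed red blood cell genes 4 were called lower (median -1.56, against 5.25% of all tested genes called lower at any size). Against CA1 and against dentate spots, 0 of 4 tested genes of this list were called. Summed over the list, the level was 355 and 652 CPM in members, 429 and 515 CPM in CA1 spots and 353 and 550 CPM in dentate spots. Hbb-bs was at 223 and 324 CPM in members and 852 and 728 CPM in other spots (-1.56 ± 0.11). Hba-a1 (-1.60 ± 0.14, -2.47 and -1.08 by section) and Hba-a2 (-1.65 ± 0.14) are near-identical copies, so how their reads were split is uncertain. Hbb-bt fell by 1.39 on the log2 scale. With members chosen without Spink8 these falls were smaller, at -0.72 for Hbb-bs, -0.38 for Hba-a1, -0.45 for Hba-a2 and -0.52 for Hbb-bt, and Hba-a1 did not pass with DESeq2. Myrf, the master regulator of myelination, was at 16.1 and 22.3 against 46.6 and 49.8 CPM (-1.36 ± 0.24). Spp1, secreted osteopontin, changed by -1.41 ± 0.27, Coro6, a coronin, by -1.39 ± 0.26, Mtcl1, a microtubule crosslinker, by -1.30 ± 0.26, and Ppp1r14a, an inhibitor of myosin phosphatase, by -1.29 ± 0.21. Pdlim2, a PDZ and LIM domain protein, was at 12.4 and 37.2 against 59.5 and 57.9 CPM, and its fall was mostly in section 1 (-1.27 ± 0.21, -2.26 and -0.66 by section). Without CA3 replicate 1, neither Pdlim2 nor Spp1 passed, and Ppp1r14a did not pass without CA3 replicate 2.

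**Figure D2:**
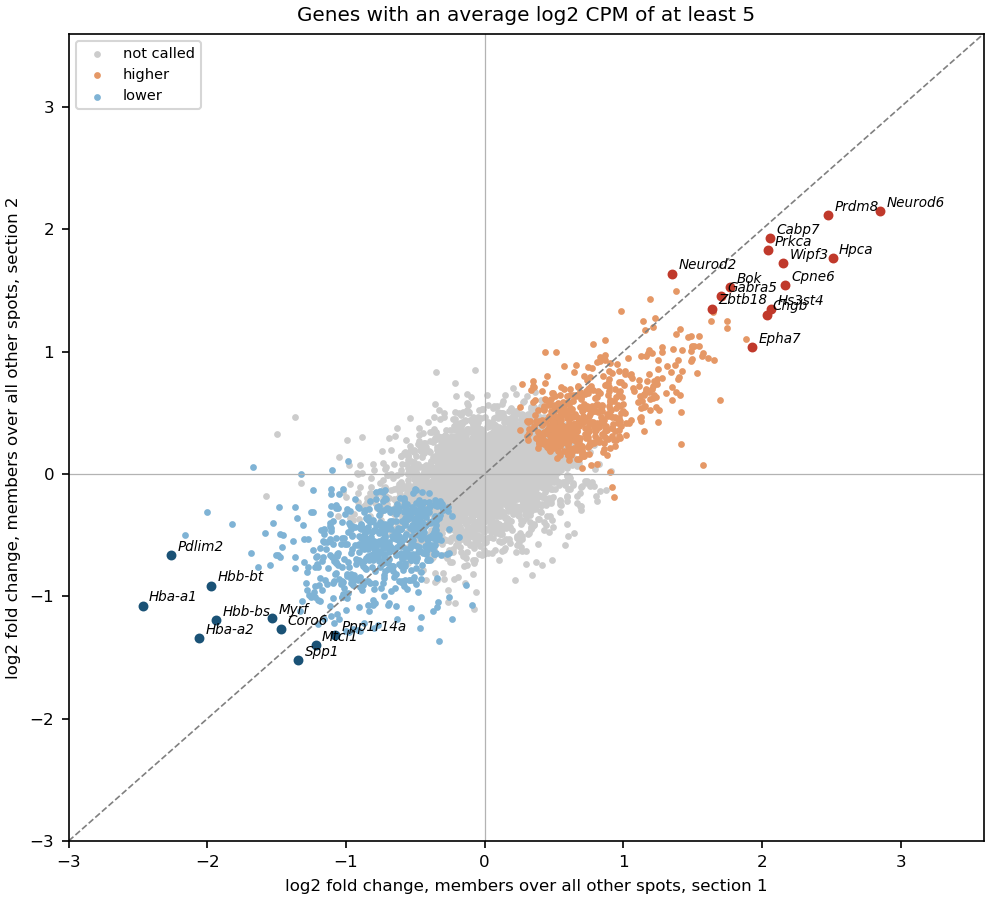
Log2 fold change of members over all other spots within section 1 (horizontal) and within section 2 (vertical), 1 point per tested gene whose average log2 CPM reached 5. Orange and light blue points were called higher and lower by edgeR, dark points carry the named genes, and the dashed line marks equal values. Most named rises lie below the line, as for Neurod6 at 2.85 and 2.15 and Epha7 at 1.93 and 1.04, while Neurod2 lies above it at 1.35 and 1.64.

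NeuroD proteins bind E-boxes, the 6-base motifs with CA at the start and TG at the end, with CAGATG and CAGCTG among the forms they bind. Since Neurod6 and Neurod2 were among the named rises, the 250 bases upstream of each start with a promoter entry were searched. The search took CAGATG on both strands (CATCTG on the printed strand) and CAGCTG, its own reverse complement. RefSeq (GRCm38.p6) gave promoters for 13 of the 15 named risen genes, and 5 of these 13 held either motif in at least 1 start, as did 25.5% of 32851 mouse promoter windows of that length. CAGATG alone lay in 14.4% and CAGCTG in 13.0% of the windows. Genes can have several starts, 20 for these 13 genes, so the share per gene and the share per window are not the same quantity. Of the 4 score genes with an entry (Spink8 had no match), Iyd held a motif. The windows shown are those of the leading riser Neurod6, of Prdm8, Gabra5 and Neurod2, which held 1 motif each, and of Iyd, with the motif in capitals and the gene's strand printed 5′ to 3′. They lie at chr6:55681264-55681513 (minus strand), chr5:98180619-98180868 (plus), chr7:57510060-57510309 (minus), chr11:98329646-98329895 (minus) and chr10:3540024-3540273 (plus).
Neurod6: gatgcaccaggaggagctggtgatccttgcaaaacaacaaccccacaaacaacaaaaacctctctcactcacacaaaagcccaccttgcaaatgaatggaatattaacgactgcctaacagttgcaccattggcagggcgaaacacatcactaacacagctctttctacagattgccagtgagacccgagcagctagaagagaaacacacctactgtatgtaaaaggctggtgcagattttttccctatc
Prdm8: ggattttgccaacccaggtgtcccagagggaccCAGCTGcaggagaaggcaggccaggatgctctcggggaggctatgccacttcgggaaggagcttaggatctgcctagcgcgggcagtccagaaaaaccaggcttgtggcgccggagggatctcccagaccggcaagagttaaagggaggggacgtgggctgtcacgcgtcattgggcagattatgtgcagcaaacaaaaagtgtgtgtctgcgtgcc
Gabra5: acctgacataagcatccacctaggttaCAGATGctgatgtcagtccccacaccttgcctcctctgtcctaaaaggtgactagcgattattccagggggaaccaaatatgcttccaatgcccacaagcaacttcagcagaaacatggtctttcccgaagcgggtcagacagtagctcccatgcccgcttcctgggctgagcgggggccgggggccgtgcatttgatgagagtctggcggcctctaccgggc
Neurod2: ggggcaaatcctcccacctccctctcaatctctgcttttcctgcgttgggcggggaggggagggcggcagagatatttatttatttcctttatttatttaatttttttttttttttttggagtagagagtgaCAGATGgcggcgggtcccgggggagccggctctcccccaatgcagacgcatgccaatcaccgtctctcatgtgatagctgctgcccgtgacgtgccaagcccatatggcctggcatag
Iyd: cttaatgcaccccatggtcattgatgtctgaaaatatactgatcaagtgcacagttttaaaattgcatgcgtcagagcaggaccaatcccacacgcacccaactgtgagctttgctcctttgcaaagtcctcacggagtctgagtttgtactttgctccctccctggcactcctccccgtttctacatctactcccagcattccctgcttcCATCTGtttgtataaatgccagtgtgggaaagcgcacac
The Neurod6 window has neither motif. The Prdm8 and Gabra5 windows lie inside the gene spans, so the outer start of each was not searched. A match is a description of letters and was not tested as a binding site.

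Within the hippocampus the risen genes split by where else they were high. As comparators, the 30 highest spots of each section for CA1 genes (Fibcd1, Wfs1, Mpped1, Pou3f1, Ccn3) and for dentate genes (Dsp, C1ql2, Prox1, Lct, Tdo2) were taken among non-members. Wfs1 was at 446 and 394 CPM in CA1 spots and 63.3 and 81.8 CPM in CA3 members, and Prox1, the granule cell fate factor, at 219 and 154 CPM in dentate spots and 41.0 and 23.6 CPM in members. Neurod6 was at 243 and 195 CPM in CA1 spots, near the members, and at 31.2 and 28.9 CPM in dentate spots. Prdm8 had the opposite order, with 164 and 141 CPM in dentate spots and 38.1 and 30.1 CPM in CA1 spots. Bok, Chgb and Hs3st4 were higher in members than in both, with Bok at 52.4 and 49.4 CPM in CA1 and 58.6 and 84.3 CPM in dentate spots. Wipf3 was at 579 and 460.4 CPM in CA1 and 609 and 572 CPM in dentate spots, beside 503 and 430.1 CPM in members, and its difference from either set did not pass. Neurod2 was higher in dentate spots, at 247 and 262 CPM, than in members. Of the score genes, Spink8 was as high in CA1 spots, at 146 and 126 CPM, as in members, while Cpne4 was at 14.3 and 24.2 CPM there and Iyd had no UMI in CA1 spots of either section. The 3 comparisons share the member sums, and the other spots include the CA1 and dentate spots.

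**Figure D3:**
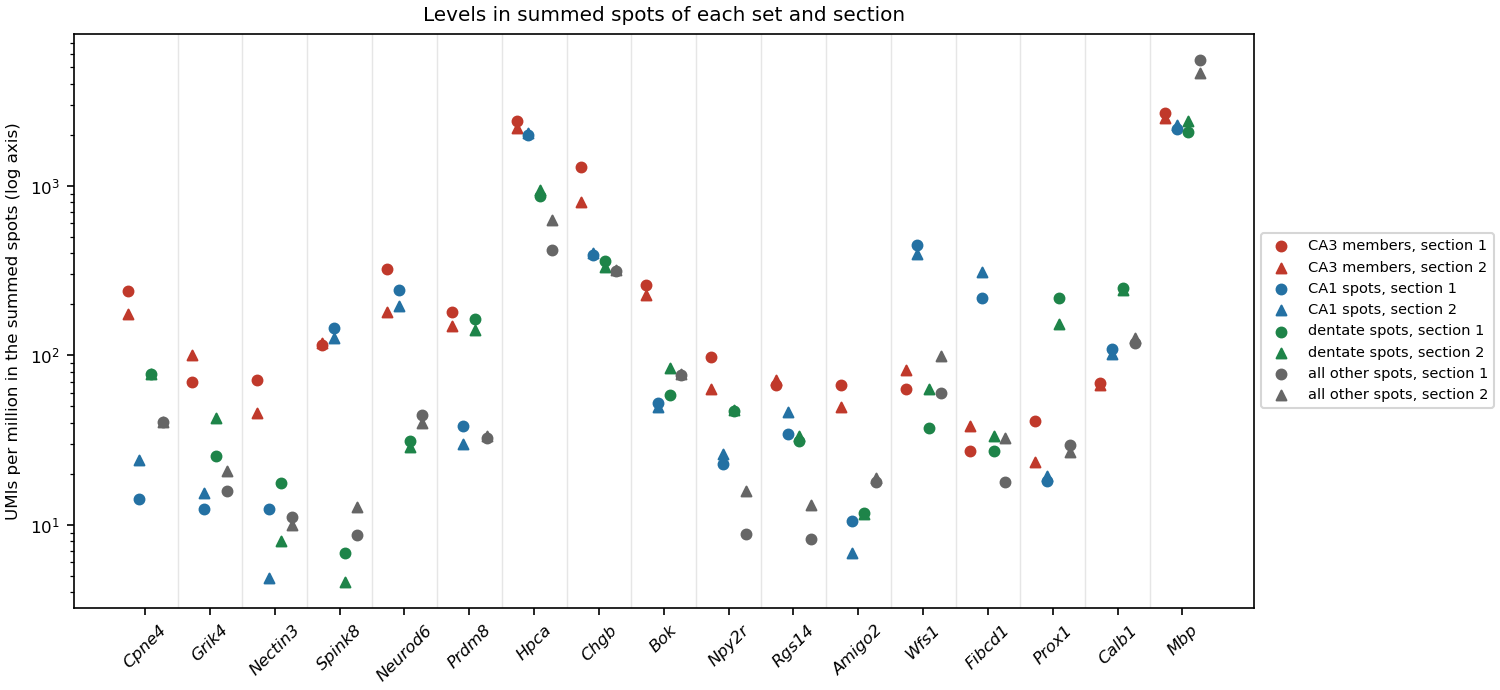
CPM (log axis) of 17 genes in the summed CA3 members, CA1 spots, dentate spots and all other spots, with circles for section 1 and triangles for section 2. Cpne4, Grik4, Nectin3, Chgb, Bok and Amigo2 were highest in members in both sections, Spink8 was shared with CA1 spots, Prdm8 with dentate spots, and Wfs1, Fibcd1, Prox1 and Calb1 were higher in a comparator.

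The counts of the lists against other spots stand beside 4.82% of all tested genes called higher and 5.25% called lower. Genes of CA2 were mixed. Of 9 tested, 4 were higher and 1 lower than in other spots (median 0.78). Rgs14 was at 67.0 and 71.9 against 8.25 and 13.1 CPM (2.70 ± 0.21), Amigo2 rose by 1.64 ± 0.20, the neurotrophin gene Ntf3 by 2.14 ± 0.49 and the calcium-binding protein gene Necab2 by 0.63 ± 0.13. Pcp4, a calmodulin-binding peptide of CA2 that is also abundant outside hippocampus, was lower (-0.66 ± 0.10). Avpr1b, the CA2 vasopressin receptor, had no UMI in any member.

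Glutamate receptor genes, which set the responses to mossy fibre and recurrent input, rose in part. Among kainate receptors beside Grik4, 2 of 6 tested genes were higher (median 0.22), where 4.82% of all tested genes were. Neto1, the auxiliary subunit that slows kainate currents, was at 69.5 and 78.1 CPM in members and 26.3 and 40.2 CPM in other spots (1.13 ± 0.17). Grik5, the high-affinity subunit GluK5, rose by 0.52 ± 0.12. The pore-forming Grik2 (0.25 ± 0.23), Grik1 (-0.92 ± 0.37) and Grik3 (-0.64 ± 0.27) did not pass. Of 12 AMPA receptor genes and partners, 4 were higher and 2 lower (median 0.00). Shisa6, which keeps AMPA receptors from desensitizing, was at 104 and 81.8 against 23.5 and 22.8 CPM (1.98 ± 0.16). The cornichon gene Cnih2 rose by 1.18 ± 0.11, Gria1 by 0.73 ± 0.11 and Gria2 by 0.46 ± 0.11, while Cnih3 (-0.56 ± 0.19) and Shisa9 (-0.69 ± 0.23) were lower. Of 6 NMDA receptor genes (median 0.02), Grin2a (1.10 ± 0.12), Grin2b (0.63 ± 0.13) and Grin1 (0.40 ± 0.11) were higher and Grin2d (-0.86 ± 0.30) lower. Of 7 metabotropic receptors (median -0.51), Grm5 was higher (0.61 ± 0.14) and Grm4 (-0.69 ± 0.23) lower, and Grm8, with 3 and 0 UMIs in members against 7.99 and 7.68 CPM in other spots, was called lower as well.

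The list for the mossy fibre synapse holds genes of both its sides, and the granule cells that make the terminals lie outside CA3. Of 17 tested genes, 3 were higher than in other spots (median 0.23), where 4.82% of all tested genes were. These were Cdh9, a cadherin of this contact (23.6 and 21.1 against 7.73 and 10.5 CPM, 1.27 ± 0.31), the plexin gene Plxna4, a guidance receptor (0.87 ± 0.17), and Gpr158, a postsynaptic receptor for heparan sulfate proteoglycans (0.54 ± 0.15). Several genes of the list with presynaptic roles were higher in dentate spots, as the vesicular zinc transporter gene Slc30a3 with 222 and 186 CPM there against 100.5 and 64.5 CPM in members (-1.23 ± 0.16 for members over dentate). Adcy1, a calcium-stimulated adenylyl cyclase, was at 952 and 753 against 339 and 221 CPM (-1.54 ± 0.10), and the glypican Gpc4 at 51.7 and 50.8 against 13.7 and 12.4 CPM (-1.90 ± 0.31). In that comparison 7 of 16 genes were lower and 3 higher in members, where 6.43% and 6.63% of all tested genes were.

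Among 25 genes of transmitter release, 12 were higher and 5 lower than in other spots (median 0.34). Slc17a7, the vesicular glutamate transporter of cortical and hippocampal neurons, was at 1571 and 1382 against 600.4 and 614 CPM (1.25 ± 0.10). The vesicle protein gene Sv2b rose by 1.09 ± 0.11, Syn2, a synapsin, by 1.02 ± 0.10, and Bsn, the active zone scaffold bassoon, by 0.83 ± 0.11. Slc17a6, the transporter of subcortical glutamate neurons, was lower (-0.79 ± 0.17), as were Syt2, a fast calcium sensor of hindbrain and interneuron terminals (-0.99 ± 0.17), Vamp1 (-0.55 ± 0.11), Unc13c (-0.84 ± 0.20) and Sv2c (-0.78 ± 0.24). Of 18 genes of the postsynaptic density, 8 were higher (median 0.36), among them Camk2a (0.81 ± 0.10), Camk2b (0.75 ± 0.10) and Nrgn (0.68 ± 0.09). The scaffold genes Dlg4 (0.24 ± 0.12) and Shank1 (-0.04 ± 0.12) did not pass. Against CA1 spots, 1 of 17 tested genes of the postsynaptic density was higher and 5 lower (median -0.31, beside 2.35% and 2.14% of all tested genes). Against dentate spots 3 were higher and 4 lower (median -0.05, beside 6.63% and 6.43%). The summed list was at 6475 and 6402 CPM in members, 7673 and 7964 CPM in CA1 spots and 7782 and 8035 CPM in dentate spots.

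Calcium sensors and buffers parted. Of 14, 6 were higher and 5 lower (median 0.08). With Hpca, the sensors Hpcal4 (0.56 ± 0.10) and Ncald (0.44 ± 0.11) rose, while Hpcal1 was lower (-0.46 ± 0.16). The buffer calbindin, Calb1, was at 68.2 and 66.9 CPM in members, 109.6 and 102 CPM in CA1 spots, 251 and 241 CPM in dentate spots and 118 and 127 CPM in other spots, and was lower in members in each comparison (-0.88 ± 0.15, -0.63 ± 0.17 and -1.79 ± 0.15 against other, CA1 and dentate spots). Calb2 (-0.79 ± 0.14) and Pvalb (-0.62 ± 0.12), which mark interneurons among other neurons, were lower than in other spots. Of 8 calcium channel pore genes (median 0.35), 4 were higher and 1 lower. Cacna1a, the P/Q-type channel of transmitter release, was at 123 and 89.2 against 67.2 and 46.0 CPM (0.88 ± 0.15). The T-type genes split, with Cacna1h higher (0.70 ± 0.20) and Cacna1g lower (-0.69 ± 0.24), and Cacna1e (0.67 ± 0.13) and Cacna1c (0.53 ± 0.17) rose.

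Among 19 potassium and HCN channels 2 were higher and 2 lower (median -0.09), which is near the 4.82% and 5.25% of all tested genes. Kcnq5, a subunit of the M-current, was at 79.4 and 53.3 CPM in members, 46.7 and 33.0 CPM in CA1 spots, 9.76 and 11.6 CPM in dentate spots and 25.2 and 23.3 CPM in other spots (1.42 ± 0.18 against other spots). Kcnq3, another M-current subunit, did not pass (0.07 ± 0.17). Kcnc4 (-0.58 ± 0.17) and Hcn2 (-0.51 ± 0.14) were lower. Of 12 GABA-A receptor subunits (median -0.04), 3 were higher, among them Gabra5 and Gabrb1 (0.72 ± 0.15), and 3 lower, among them Gabra3 (-1.02 ± 0.20) and Gabrd (-0.70 ± 0.17). Against CA1 spots, 0 of 11 tested subunits were higher and 1 lower (2.35% and 2.14% of all tested genes). The counts were the same against dentate spots (6.63% and 6.43%).

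Copines beside Cpne4 (median 0.20) included 2 risen genes of 8 tested, Cpne6 and Cpne7 (1.14 and 1.25 by section). Cpne7 was at 88.1 and 262 CPM in members and 39.7 and 108 CPM in other spots, so section 2 was higher in both, and the members exceeded the other spots within each. Of 9 genes of thyroid hormone handling beside Iyd (median 0.16), Crym, which binds thyroid hormone in the cytosol, was at 177 and 386 against 77.4 and 141 CPM (1.31 ± 0.12) and the receptor Thra rose by 0.38 ± 0.10. Of 8 genes of corticosteroid signalling (median -0.31), the mineralocorticoid receptor Nr3c2, an abundant steroid receptor of hippocampus, was at 69.5 and 40.9 against 24.2 and 20.8 CPM (1.26 ± 0.20). Fkbp5, a co-chaperone of steroid receptors, rose by 0.99 ± 0.21, the glucocorticoid target Tsc22d3 was lower (-0.57 ± 0.15), and the glucocorticoid receptor Nr3c1 did not pass (-0.48 ± 0.20). Against CA1 and against dentate spots, 0 of 7 tested genes of corticosteroid signalling were called. Of 8 neurotrophin genes and receptors, 4 were higher (median 0.64). Bdnf was at 36.0 and 34.7 CPM in members (1.37 ± 0.25, 1.25 and 1.51 by section), and Ntf3, Ntrk3 (0.67 ± 0.14), its receptor, and Sort1 (0.61 ± 0.11), a sorting receptor, rose too.

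Of 11 genes of granins and prohormone processing (median 0.05), Chgb, the processing enzymes Cpe (0.53 ± 0.09) and Pcsk2 (0.44 ± 0.11) were higher and Scg2 lower (-0.58 ± 0.13). Of 23 forebrain transcription factors, 8 were higher and 3 lower (median 0.26). Bhlhe22 (0.93 ± 0.17) and Zbtb20, a hippocampal identity factor (0.93 ± 0.14), were among those that rose, while Mef2c (-0.75 ± 0.13) and Etv1 (-0.47 ± 0.16) were among those that were lower. Immediate early genes, which follow neuronal activity, gave 1 call in 14 (median -0.25), Egr1 at 108 and 79.3 against 162 and 102 CPM (-0.51 ± 0.14), which is near the 5.25% of all tested genes called lower. Of 18 clock genes 6 were lower (median -0.31), among them Bhlhe41 (-1.03 ± 0.22), Cry1 (-1.25 ± 0.35) and Dbp (-0.64 ± 0.14). Of 15 glycolytic genes 5 were higher and 2 lower (median 0.22), with Pfkl (0.92 ± 0.12) and Ldha (0.54 ± 0.11) up and the astrocyte isozyme Aldoc (-0.67 ± 0.10) and Ldhb (-0.49 ± 0.10) down. All 13 mitochondrially encoded genes were lower (median -0.42). Against CA1 spots 0 of the 13 were called. Against dentate spots 3 were higher and 0 lower (6.63% and 6.43% of all tested genes).

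**Figure D4:**
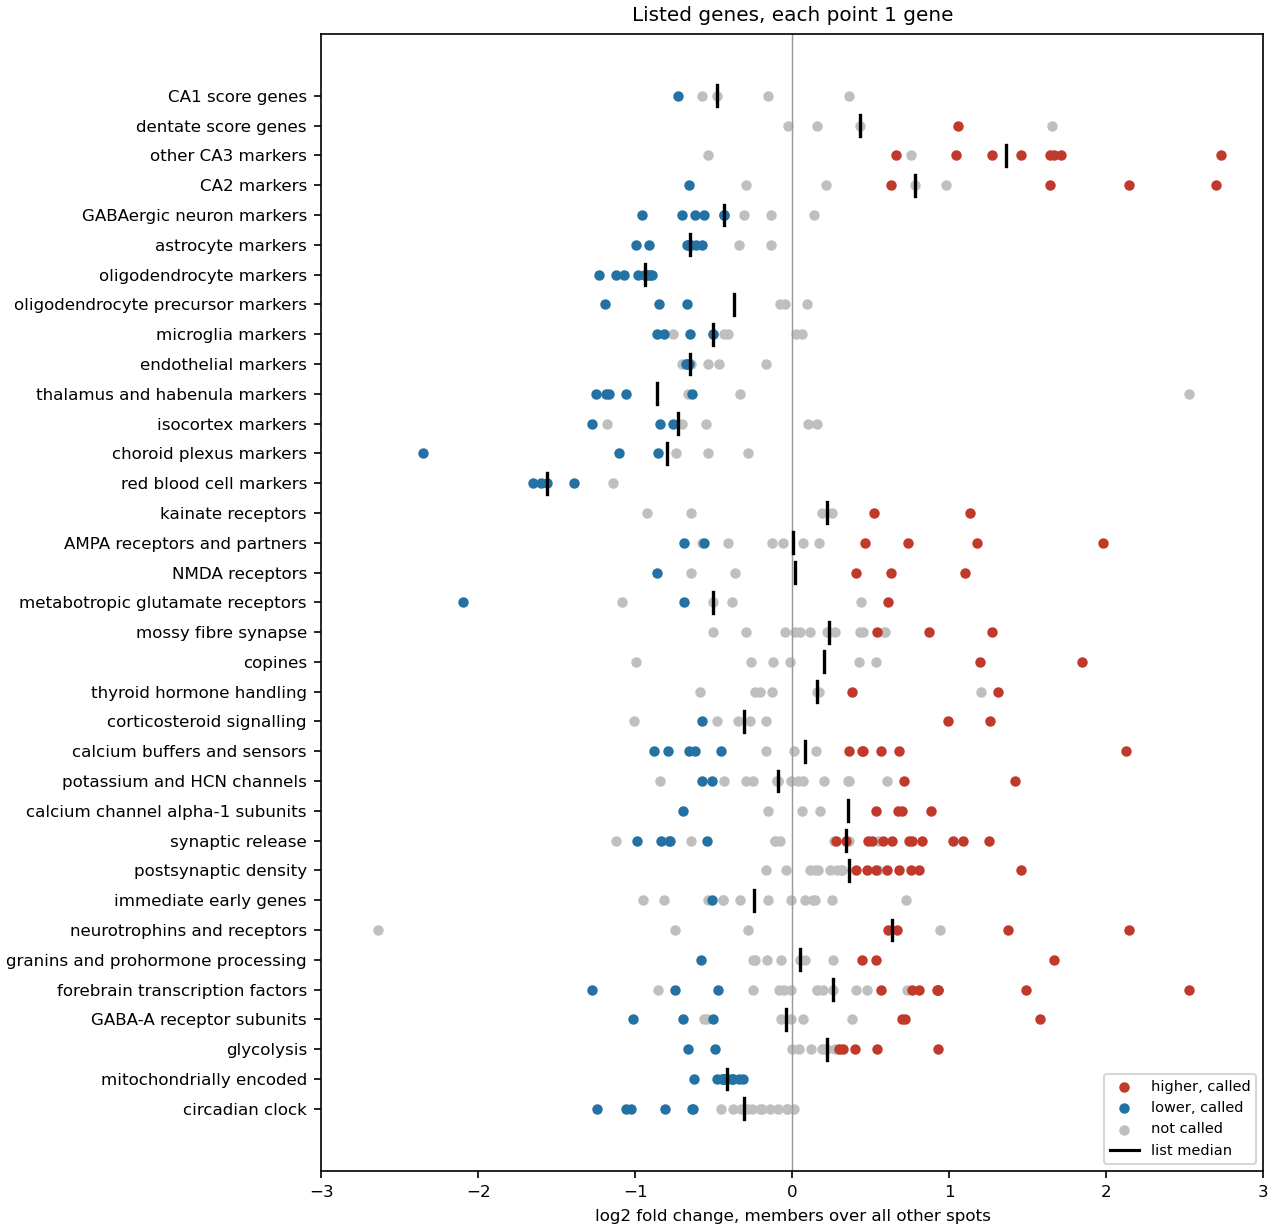
Log2 fold change of members over all other spots (horizontal) for the tested genes of each list (rows), red where called higher, blue where called lower and grey where not called by edgeR, with the list median as a black bar. The CA3 marker list has the highest median (1.36), and every list of glia, vessel, blood and other brain regions has its median below 0.

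Many markers of other cells that the spots could hold were lower in members than in all other spots. All 10 oligodendrocyte markers were called lower (median -0.94), with Mbp, myelin basic protein, at 2703 and 2527 CPM against 5535 and 4632 CPM. Lower calls also took 8 of 10 astrocyte markers (median -0.65), 6 of 9 markers of GABAergic neurons (-0.44), 4 of 10 of microglia (-0.51), 3 of 8 of endothelium (-0.65), 3 of 6 of oligodendrocyte precursors (-0.38), 5 of 8 of thalamus and habenula (-0.86), 3 of 8 of isocortex (-0.73), 3 of 6 of choroid plexus (-0.80) and 2 of 3 of hilar mossy cells (-0.79), against 5.25% of all tested genes. These markers were still detected. Summed over each list, oligodendrocyte markers were at 5627 and 6291 CPM in members and 11640 and 12310 CPM in other spots, astrocyte markers at 2652 and 2558 against 3956 and 3218 CPM, and GABAergic markers at 1052 and 1358 against 1535 and 1766 CPM. Ttr, the dominant choroid plexus transcript, was at 1272 and 1161 CPM in members. Against CA1 and against dentate spots, only the isocortex list had a lower call, 1 of 7 genes in each (2.14% and 6.43% of all tested genes). Higher in members were 2 of 10 oligodendrocyte and 1 of 6 thalamus and habenula markers in each (2.35% and 6.63%), and 3 of 9 GABAergic markers against dentate spots. The oligodendrocyte sum was 4540 and 5782 CPM in CA1 and 4519 and 6144 CPM in dentate spots. In summed spots, fewer cells of a type and less RNA per cell cannot be told apart, and the part of these cells in the neuronal rises was not tested. Of the CA1 score genes Mpped1 was lower than in other spots (-0.73 ± 0.18), but at 0.14 when members were chosen without Cpne4. Of the dentate score genes Lct was higher (1.06 ± 0.37), with 23.6 and 6.20 CPM in members, but at -0.45 with 15 spots per section.

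Against CA1 spots, members were higher in Prdm8, Bok and 9 of 22 tested genes of transmitter release. They were lower in 5 of 11 genes of AMPA receptors and their partners and in 2 of 6 of NMDA receptors. These are calls of any size, which took 2.35% of all tested genes as higher and 2.14% as lower. Of 9926 genes tested in a fit of 6 sums, 73 (0.735%) were at least 2-fold higher in CA3 members and 69 (0.695%) at least 2-fold lower. Here a gene's own spread entered with 2 residual degrees of freedom, beside a median of 31.4 from the trend over genes. Most of the spread was thus still taken from the trend. The 15 score genes of the 3 sets got no p. Without section as a term the counts were 35 and 27. A fit of 8 sums gave 64 and 60, and the same fit gave 34 and 37 without CA3 replicate 1 and 58 and 45 without CA3 replicate 2. Prdm8 (2.29 ± 0.18, adjusted p = 4.02e-11) and Bok (2.27 ± 0.16) were the largest rises among genes whose average log2 CPM reached 5 and were alike in both sections (2.17 and 2.21 for Prdm8, 2.25 and 2.13 for Bok). Ccnd2, cyclin D2, was at 123 and 110.3 against 23.8 and 44.6 CPM (1.79 ± 0.21), and Npy2r rose by 1.73 ± 0.23. The kinase gene Nek6 (1.73 ± 0.27), the secreted factor gene Tafa2 (1.62 ± 0.31) and the silent potassium channel subunit gene Kcng2 (1.62 ± 0.29) were among the other named rises. Npy2r and Tafa2 did not pass without CA3 replicate 1, and Kcng2 did not without CA3 replicate 2.

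Of the genes higher in CA1 spots and above the same limit, the largest difference was that of Gpr161, an orphan receptor of primary cilia, at 14.9 and 11.2 CPM in members and 88.7 and 65.9 CPM in CA1 spots (-2.54 ± 0.27). Itpka, an inositol trisphosphate kinase of dendritic spines, was at 206 and 181 against 696 and 598 CPM (-1.72 ± 0.11, -1.76 and -1.74 by section). Pex5l, the HCN channel partner TRIP8b, was at 72.0 and 59.5 against 264 and 196 CPM (-1.78 ± 0.15). The others were Gm2115 (-2.06 ± 0.19), Sertm1, a membrane protein (-2.03 ± 0.19), Arhgap12, a GTPase-activating protein (-1.92 ± 0.21), Cd34, a surface sialomucin (-1.69 ± 0.24), and Kcnh7, an ERG-type potassium channel (-1.64 ± 0.28), the last not passing without CA3 replicate 1. With members chosen without Cpne4, these differences were smaller, at -1.22 for Gpr161, -1.04 for Gm2115 and -1.12 for Itpka. Genes of AMPA receptors and their partners were lower than in CA1 spots in 5 of 11 tests (2.14% of all genes were lower at any size). Among them, Gria1 was at 399.6 and 425 against 667 and 616 CPM (-0.62 ± 0.10). Of 6 NMDA receptor genes, Grin2a (-0.62 ± 0.11) and Grin2b (-0.59 ± 0.12) were lower. Release genes went the other way, higher than in CA1 spots in 9 of 22 (2.35% of all genes), with Snap25 at 3585 and 2255 against 1893 and 1500 CPM (0.78 ± 0.09), Syn2 at 0.81 ± 0.11 and Bsn at 0.79 ± 0.12. Neto1 was higher than in CA1 spots too (1.30 ± 0.22). Of the other CA3 markers 8 of 10 were called higher (median 1.42).

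Against dentate spots, members were higher in Neurod6, Lats2, Kcnq5 and most listed genes of transmitter release, and lower in Fam163b, Dgkh and Grm2. In the same fit, 174 (1.75%) of the 9926 genes were at least 2-fold higher in members and 258 (2.6%) at least 2-fold lower. At any size the split was 658 (6.63%) higher and 638 (6.43%) lower, and 478 and 794 without TMM factors, so the balance of directions moved with the scaling. Among genes whose average log2 CPM reached 5, Neurod6 was again the largest rise, at 31.2 and 28.9 CPM in dentate spots (3.14 ± 0.19, adjusted p = 3.85e-14). Lats2, a Hippo pathway kinase, was at 78.2 and 39.7 against 5.86 and 12.7 CPM (2.79 ± 0.34), with the larger value in section 1 (3.38 and 1.52). Kcnq5 rose by 2.73 ± 0.29 and Hs3st4 by 2.42 ± 0.19. Lpl, lipoprotein lipase, was at 63.3 and 59.5 against 11.7 and 11.6 CPM (2.44 ± 0.31). Cpne7 (2.38 ± 0.18), the guidance factor gene Sema3e (2.35 ± 0.32) and the extracellular protease gene Klk8, neuropsin (2.32 ± 0.40), followed, Klk8 not passing without CA3 replicate 1. Sv2b, the vesicle protein gene, was at 432 and 347 against 90.8 and 100.5 CPM (2.10 ± 0.14), one of 15 of 22 release genes called higher.

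Among genes higher in dentate spots was Fam163b, at 91.8 and 65.7 CPM in members and 546 and 429.5 CPM in dentate spots (-2.56 ± 0.13, -2.47 and -2.64 by section). Dgkh, a diacylglycerol kinase, was at 69.5 and 39.7 against 346 and 293 CPM (-2.47 ± 0.16), and Stxbp6, the SNARE-binding amisyn, at 60.8 and 53.3 against 303 and 203 CPM (-2.07 ± 0.16). Grm2, the presynaptic metabotropic receptor of mossy fibres, was at 13.7 and 11.2 against 70.3 and 63.5 CPM (-2.34 ± 0.29). The falls of Robo3, a guidance receptor (-2.52 ± 0.32), and of Plk5, a polo-like kinase (-2.51 ± 0.30), were deeper in section 2. Rasl10a, a Ras-like protein gene (-2.14 ± 0.21), and Slc29a4, a monoamine transporter gene (-2.09 ± 0.27), completed the group. Of 21 forebrain transcription factors 8 were lower and 2 higher than in dentate spots, where 6.43% and 6.63% of all tested genes were. Bhlhe22 (-1.44 ± 0.16), Bcl11b (-1.32 ± 0.18) and Neurod1 (-1.27 ± 0.24) were among the lower. Bcl11b was also lower than in CA1 spots (-1.14 ± 0.18), at 58.3 and 64.5 CPM in members against 168 and 107 CPM there and 43.1 and 57.9 CPM in other spots. Of the immediate early genes, Arc and Egr1 stood between both fields. Arc was at 64.5 and 45.9 CPM in members, 109 and 63.0 CPM in CA1 spots and 34.2 and 18.5 CPM in dentate spots, lower than in the first (-0.62 ± 0.18) and higher than in the second (1.14 ± 0.24). Egr1 was likewise lower than in CA1 (-1.17 ± 0.14) and higher than in dentate spots (0.63 ± 0.18), while Egr3 was lower than in both (-0.70 ± 0.17 and -0.79 ± 0.17).

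**Figure D5:**
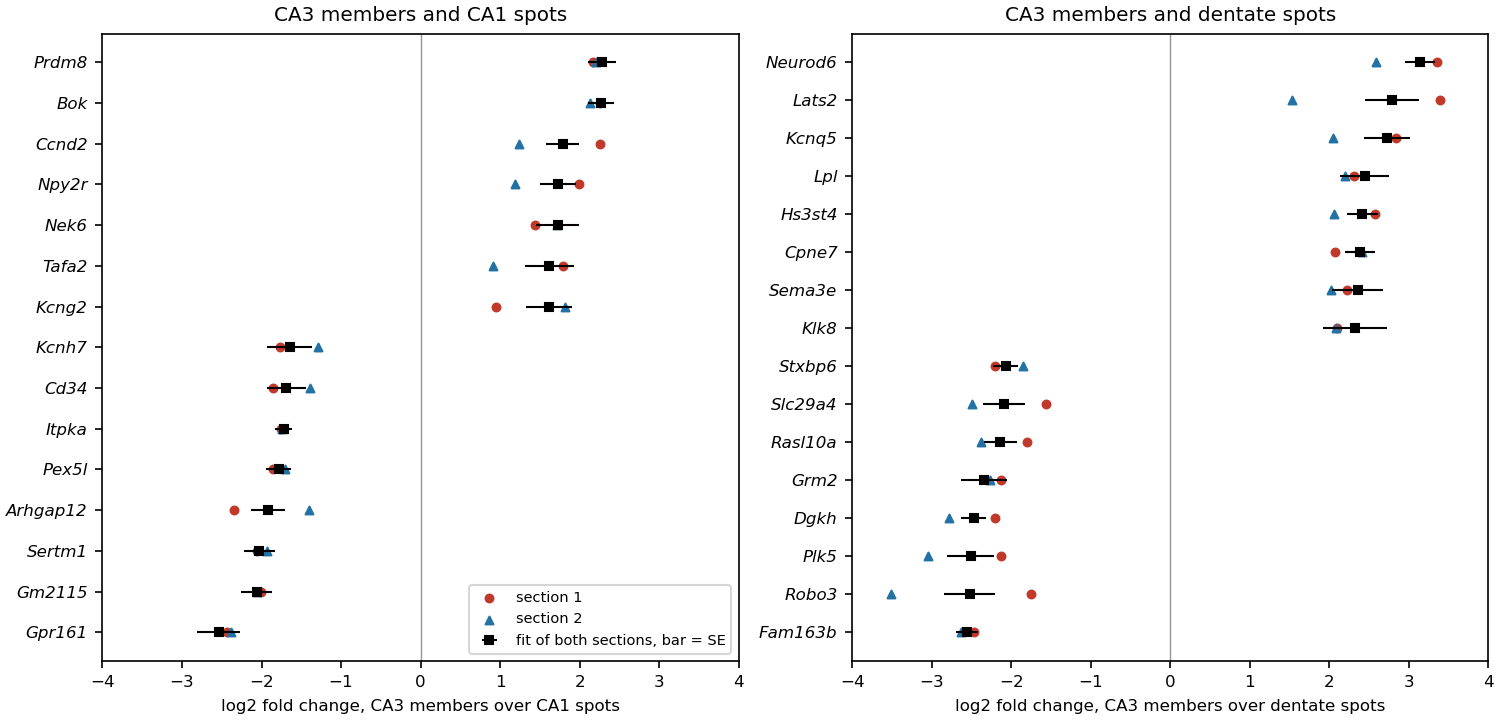
Log2 fold change of CA3 members over CA1 spots (left) and over dentate spots (right) for the genes named in each comparison by the size of their change. Squares with bars give the fit of both sections ± SE, red circles section 1 and blue triangles section 2, so that Bok and Prdm8 at left and Fam163b at right are alike in both sections while Lats2 (3.38 and 1.52) is not.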

How the data were processed

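The authors deposited UMI counts for each gene in each spot lying on tissue, as whole numbers made with Space Ranger (1.2.2 in the header of section 1, 2.0.1 in that of section 2, per the file headers) without normalization. The submitters' processing notes name 2.0.1 and mm10 for both, and no source used here gives the annotation release. Positions of spots were not used.

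Counts of the spots of a set were summed per section, since spots are not replicates. edgeR 4.0.16 under R 4.3.3 gave quasi-likelihood F tests on the sums that passed filterByExpr, scaled by TMM, with section as a block because the sums compared come from the same sections. Members against all other spots used 4 sums (1 residual degree of freedom, with the spread taken from the trend). Members, CA1 and dentate spots used 6 (2 residual degrees of freedom, beside a median of 31.4 from the trend). p-values were adjusted by Benjamini-Hochberg over all tested genes, without the score genes. A gene was called at an adjusted p under 0.05. The SE is the size of the log2 fold change over the square root of F. Fold changes within a section used a prior count of 2 and no test. The steps were tested on simulated data. With members of at least 2000 UMIs alone, the counts stayed within 1.5 times.

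Named genes were, among called genes that moved 1 way in both sections and whose average log2 CPM reached 5, the 15 largest rises and 10 largest falls against other spots and the 8 largest each way against CA1 and dentate spots, plus listed genes. Some of these genes are not reported here. Members, rule and lists were chosen with earlier results of these data known. Of the listed genes 1, whose symbol 2 IDs share, was left out. Alternatives were DESeq2 1.42.0, no TMM factors, other count filters, no block, 15 or 60 spots, at least 2000 UMIs, each score gene left out, 8 non-overlapping sums, ranks 31 to 60 left out, thinned counts, a summed score and each replicate left out. Figures were drawn with matplotlib 3.10.9.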

Additional observations from a re-analysis of the deposited data

How the results depend on the processing

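Counts at least 2-fold higher and lower held within 1.5 times except as follows. Against all other spots (191 and 258), the lower count was 97 with 60 spots, 42 with DESeq2, 164 with members chosen without Nectin3, 150 without Spink8 and 167 with other spots thinned to the member total; the counts were 10 and 0 with no replicate block. The fit of 8 sums gave 204 and 220, and leaving out 1 member sum from it 122 to 251 higher and 67 to 232 lower. Against CA1 spots (73 and 69), the counts were 23 and 25 with DESeq2, 48 and 26 without Cpne4 and 35 and 27 with no replicate block, and the lower count was 104 with 15 spots and 111 without Spink8. The fit of 8 sums, chosen after seeing the data for the CA1 and dentate comparisons, gave 64 and 60, and leaving out 1 member sum from it 34 to 58 higher and 37 to 45 lower. Against dentate spots (174 and 258), they were 78 and 86 with DESeq2 and 111 and 149 with no replicate block, 170 and 245 in the fit of 8 sums, and 134 to 165 higher and 176 to 182 lower in it without 1 member sum, where the lone sum is assumed to vary like the others.

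Of the 25 genes that the naming rule chose against other spots, 6 passed under all 19 alternatives and 15 lost the call only with no replicate block, and 11 of 16 and 14 of 16 passed under all alternatives that measured them against CA1 and dentate spots. None of these genes reversed. Among other listed genes, against other spots Lct was -0.45 with 15 spots, and without Cpne4 in the rule Wfs1 was 1.06 and Mpped1 0.14. Against CA1 spots Tcf7l2 was 0.59 and Hbb-bs 0.61 with 60 spots, and Hbb-bs 0.93 without Spink8. Against dentate spots Gfap was -0.36 with 60 spots and Cpne2 -0.61 without CA3 replicate 2 and 1.79 without CA3 replicate 1. The causes were not tested. Depth limits genes such as Iyd, at 9 and 4 UMIs.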
